A study of Mus musculus with 6 samples.

Results

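The early response of the uterus to estradiol, the main ovarian estrogen, was read as the difference between the array taken 1 h after a single injection and the vehicle array, which are 2 of the 6 arrays of the time course. Both were chosen by their labels, and each group had 1 array. All mice were C57Bl/6 females aged 10 to 11 weeks that had been ovariectomised 7 days before they were killed, so the hormone reached uteri with little circulating estrogen of their own. The estradiol 1 h group had received 0.05 µg of the hormone per mouse subcutaneously 1 h earlier, and the estradiol 6 h, 12 h and 24 h groups, used here to follow the early genes, the same dose at those times. The vehicle group had received the solvent alone 24 h earlier. Its injection is therefore older than that of the 1 h group, and an effect of a recent injection cannot be told apart from an effect of estradiol at 1 h. The same holds at 6 h and 12 h, and only the 24 h group matches vehicle in time since injection. Whole uteri were trimmed of attached tissue and pooled before RNA extraction, and the labels mention 10 mice without saying whether that number is per pool. A further time of 0.5 h in the protocol was not analysed here.

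Estradiol acts through estrogen receptors, which bind DNA as ligand-activated transcription factors and also set off rapid kinase signalling. The first genes to respond to such a signal in many tissues are immediate early genes, which are transcribed without new protein synthesis and encode short-lived transcription factors. They are joined by genes whose products damp the same signal, such as phosphatases, receptor inhibitors and suppressors of cytokine signalling. In the rodent uterus, this phase precedes swelling of the tissue with fluid, and then growth and division of its epithelium.

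The values are MAS5 signals, a linear measure of the brightness of each probe set, which is a group of short probes for 1 transcript. Signals below 142.8, the 40th percentile of all values, were raised to that floor, and a gene was read by its brightest probe set. A difference is the log2 ratio of 1 h over vehicle, and 2-fold was the limit for counting a gene as higher or lower. Where the dimmer array lay under the floor, the fold is a lower bound and is written "at least". With 1 array per group there is no error estimate, so no difference was tested, and every statement below describes these arrays. Because whole organs were measured, fewer cells of a type and less RNA per cell cannot be told apart. The share of probe sets at or above the floor was 61.7% at 1 h and 60.4% in vehicle, and Spearman's rho between the signals of the 2 arrays was 0.968 over probe sets. All 9 probe sets for bacterial spike-in transcripts were dimmer at 1 h than in vehicle, with a median log2 ratio of -1.08. The part of this in the results was not tested.

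The array labelled 3 h stood apart, with rho of 0.843 to 0.857 against the other 5 arrays, and went against its label. Hoxa11, a homeobox gene of uterine stroma, had a signal of 14.6 there, while the other arrays had 2168 to 2662. Myh4, a skeletal muscle myosin gene, had 14211 on that array and 1.30 to 24.1 on the others. That array entered the scaling, the floor, the choice of a gene's probe set and the counts over all 6 arrays. Leaving it out of the scaling, the floor and that choice changed the probe set of 58 genes, none of them 2-fold higher or lower, and the counts stayed at 56 higher and 23 lower.

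Of 8251 named genes on the array, 6034 were at or above the floor at 1 h or in vehicle, and 2217 lay under it on both. At 1 h, 56 genes were at least 2-fold higher than in vehicle, which is 0.928% of those measured, and 23 were at least 2-fold lower, which is 0.381%. The 56 were led by a few large differences. Only 8 reached 4-fold. Across all measured genes the median absolute log2 ratio was 0.20 and the 95th percentile 0.69. The counts depended on the floor, with 258 higher and 161 lower for a floor at the 20th percentile, and 24 and 5 for a floor at the 60th. Removing a smooth trend of the ratio with signal gave 44 higher and 32 lower. Just inside the limit lay Zfp61, Wfdc18, Myc and Cenpa, with log2 ratios of 1.01, 1.00, 1.00 and 1.00. Just outside it lay Eloa, Slc6a18, Alk and Nadk, with 0.98, 0.98, 0.97 and 0.96.

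**Figure D1:**
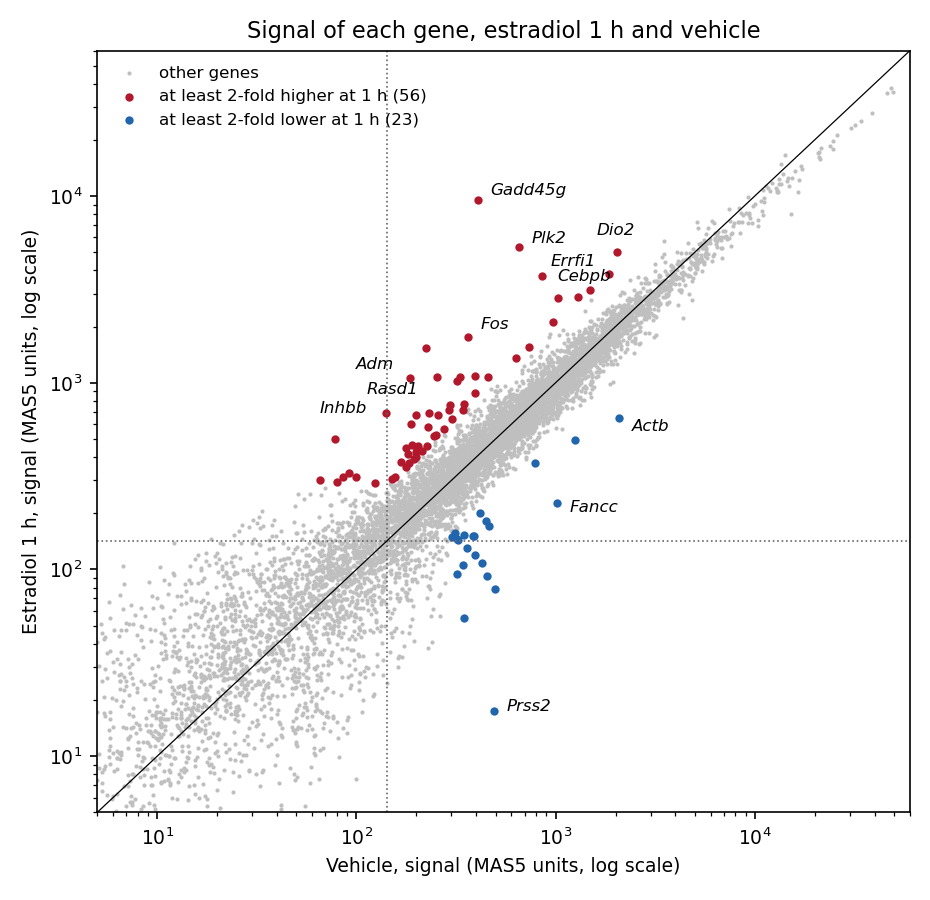
Signal of each named gene on the estradiol 1 h array (vertical axis) and the vehicle array (horizontal axis), both in MAS5 units on log scales, with 1 array per group. Red points are the 56 genes at least 2-fold higher at 1 h and blue points the 23 at least 2-fold lower; dotted lines mark the floor of 142.8, and Gadd45g has the highest ratio, at 9583 at 1 h and 407 in vehicle.

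The tissue was checked by marker lists. At or above the floor on both arrays were 14 of 16 epithelial markers, 10 of 11 stromal ones and all 9 of smooth muscle, and none of these was 2-fold higher or lower. Hoxa11 had a signal of 2348 at 1 h, against 2662 in vehicle. The epithelial keratin gene Krt19 had 1859 at 1 h and 2198 in vehicle. Summed signals at 1 h were 0.884 times those of vehicle for epithelium, 0.877 times for stroma, 0.8003 times for smooth muscle, 0.947 times for endothelium and 1.06 times for macrophages and leukocytes. Fat cell markers were present in both, with Adipoq, the adiponectin gene, at 4407 at 1 h and 4283 in vehicle, and 7 of 8 skeletal muscle markers lay under the floor on both. Among the marker lists, only that of pancreatic acinar cells held members at 2-fold, and it is described with the lower genes.

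Signalling feedback genes, a list that also takes in stress-response genes, held more of the 56 than any other role list. Of 68 measured, 9 were at least 2-fold higher (13.2%, against 0.928% over all measured genes) and 1 lower, and the median log2 ratio of the list was 0.18, against -0.01 over all measured genes. All role lists were chosen with earlier results of these data known, which can raise such shares, and no share was tested. Gadd45g, a stress-response gene whose product binds and activates a kinase upstream of the stress-activated MAP kinases, had the highest ratio of all, with a signal of 9583 at 1 h and 407 in vehicle. That is a 23.6-fold difference. Its relatives differed less. Gadd45a had 1127 at 1 h and 681 in vehicle, and Gadd45b 417 and 330 in the same order, so that Gadd45g was the only one of the 3 past 2-fold. A second probe set of Gadd45b went the other way, with 183 at 1 h and 228 in vehicle.

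Errfi1 encodes an inhibitor that binds the kinase domain of the epidermal growth factor receptor. Its signal was 3724 at 1 h and 856 in vehicle, or 4.35-fold higher, and a second probe set read 3044 at 1 h and 805 in vehicle. The receptor and its measured ligand showed no such difference. Egfr had 374 at 1 h and 317 in vehicle, but 183 and 252 in the same order by another probe set. Hbegf, heparin-binding EGF-like growth factor, had 523 at 1 h and 524 in vehicle. Ereg, Tgfa, Btc and Egf, which encode other ligands of the same receptor family, lay under the floor on both arrays.

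Suppressors of cytokine signalling block kinases attached to cytokine receptors. Socs1 had 1025 at 1 h and 321 in vehicle, which is 3.20-fold higher, and Socs3 had 759 at 1 h and 294 in vehicle, 2.58-fold higher. A second probe set of Socs3 was 2.02-fold higher. Socs2, Socs5 and Cish of the same family had log2 ratios of 0.41, 0.56 and 0.27. Spsb1, which encodes a substrate adaptor of a ubiquitin ligase and has the same kind of box as the Socs genes, had 1071 at 1 h and 332 in vehicle, and its second probe set was 2.56-fold higher. Both Spsb1 probe sets are of a type whose probes match several similar sequences. Spsb2 had a log2 ratio of -0.30.

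Genes that act on G proteins and MAP kinases were also among the feedback genes at 2-fold. Rasd1, a Ras-related gene known to be induced by glucocorticoid, had 1068 at 1 h and 254 in vehicle, 4.20-fold higher. Rgs3, which shortens signalling by G proteins, had 3140 at 1 h and 1482 in vehicle, 2.12-fold higher. Rgs19, another of its family, was higher by 2.07-fold on the brightest of its probe sets, but another had 234 at 1 h and 252 in vehicle. Dusp1 encodes a phosphatase that switches off MAP kinases, and had 1560 at 1 h and 732 in vehicle, 2.13-fold higher. The other MAP kinase phosphatase genes stayed close to vehicle, with Dusp2, Dusp6 and Dusp16 at log2 ratios of 0.04, -0.02 and 0.24, and Dusp8 and Dusp9 under the floor on both arrays. The 1 feedback gene that was lower was Asb6, with 172 at 1 h and 464 in vehicle.

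Immediate early transcription factors came next, with 5 of 33 measured at least 2-fold higher (15.2%) and no member 2-fold lower; the median log2 ratio was 0.21. Fos, whose product pairs with Jun proteins to form AP-1, had 1757 at 1 h and 364 in vehicle, 4.82-fold higher. Other AP-1 genes did not reach 2-fold. Jun had 1488 at 1 h and 845 in vehicle, a log2 ratio of 0.82, and Fosb had 481 at 1 h and 248 in vehicle, a log2 ratio of 0.96. Junb, Jund and Fosl2 had log2 ratios of -0.78, -0.39 and 0.34, but a second probe set of Junb went the other way, at 0.48. Fos was thus the only AP-1 subunit of 7 measured, Atf3 included, that passed the limit.

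Cebpb, a leucine zipper factor, had 2854 at 1 h and 1026 in vehicle, 2.78-fold higher. Klf4, a zinc finger factor of epithelia, had 2104 at 1 h and 975 in vehicle, 2.16-fold higher, while the 6 other Klf genes measured had log2 ratios between -0.23 and 0.16 by their brightest probe sets. Second probe sets of Klf3, Klf9, Klf10 and Klf13 had 0.76, 0.47, -0.59 and -1.54. Nr4a1, an orphan nuclear receptor, had 638 at 1 h and 303 in vehicle, 2.11-fold higher. Myc stood at the limit, with 430 at 1 h and 215 in vehicle, and fell short of it in 5 of the 10 alternative analyses. The zinc finger factor gene Egr1 had 1381 at 1 h and 832 in vehicle, a log2 ratio of 0.73, and Egr2 had 238 at 1 h and 252 in vehicle.

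The list of other regulated transcription factors held no gene at the limit by its brightest probe set. None of the 111 measured on it was 2-fold higher or lower so read, their log2 ratios ran from -0.85 to 0.68, and the median was -0.03. The second probe set of Klf13, a member, had 242 at 1 h and 704 in vehicle. Id1, Id2, Id3 and Id4, inhibitors of helix-loop-helix factors, had log2 ratios of 0.00, -0.10, -0.16 and 0.01. Hand1, a helix-loop-helix factor, and Pax8, a paired box factor, were on none of the lists and were named after their values were seen. Hand1 had 466 at 1 h and 190 in vehicle, and Pax8 had 456 at 1 h and 203 in vehicle, 2.24-fold higher.

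Among intracellular kinases, 4 of 127 measured were at least 2-fold higher (3.15%, against 0.928% over all measured genes). By their brightest probe sets no member was 2-fold lower, and the list had a median log2 ratio of 0.03. Csnk1d had 138 at 1 h and 442 in vehicle by another probe set, but 3517 and 3571 by its brightest. Plk2, a polo-like kinase that takes part in centriole duplication and is itself an early response gene in cultured cells, had 5309 at 1 h and 658 in vehicle. It was 8.06-fold higher, the largest ratio on the list. Plk1, Plk3 and Plk4 had log2 ratios of -0.12, 0.07 and 0.52. Src, which encodes a membrane-associated tyrosine kinase, had 301 at 1 h and 65.6 in vehicle, at least 2.11-fold higher against the floor, and the related Yes1 had 459 at 1 h and 226 in vehicle, 2.03-fold higher. Prkcz, an atypical protein kinase C gene, was higher by 2.44-fold on the brightest of its probe sets, whereas another read 302 at 1 h and 289 in vehicle. None of the 33 measured genes on the list of receptor kinases was 2-fold higher or lower, and their log2 ratios lay between -0.36 and 0.55.

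**Figure D2:**
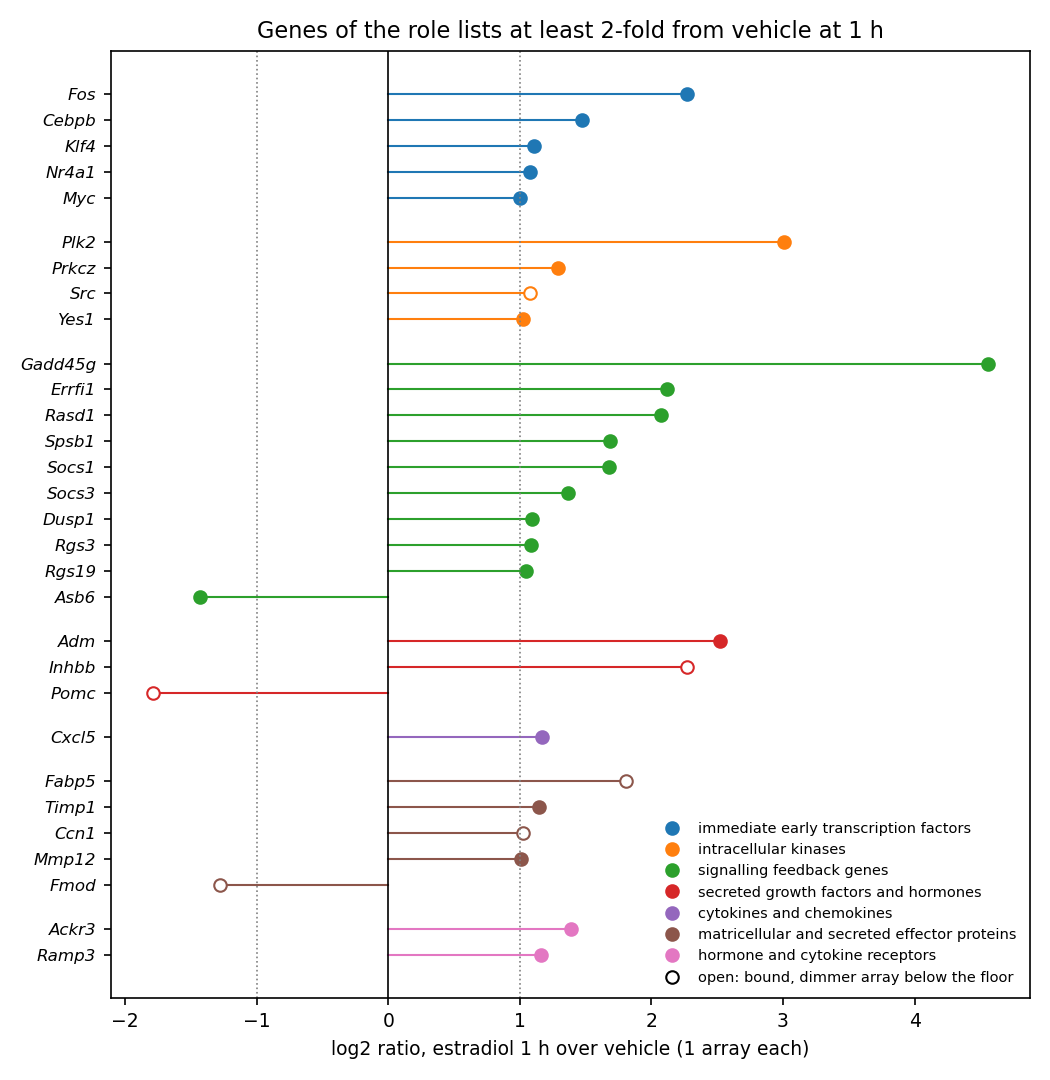
Log2 ratio of estradiol 1 h over vehicle (horizontal axis, 1 array per group) for the 30 genes of the role lists at least 2-fold higher or lower, grouped by role. Dotted lines mark 2-fold and open circles are lower bounds; 27 genes lie to the right and 3 (Asb6, Pomc and Fmod) to the left, and Gadd45g is farthest right at 4.56.

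The stretches just upstream of the start sites of 5 of these genes are shown, chosen because each holds a motif searched and because they span feedback genes, a kinase and a transcription factor. They do not stand for the 56: the stretch of Adm, whose ratio was higher than that of Fos, held none of the motifs searched. Each holds 200 bases of mouse RefSeq sequence on GRCm38.p6, ending at the base before the annotated start. Capitals mark TGACG, the core of the cAMP response element, the full element TGACGTCA and the TATA box TATAAA, searched on both strands. The full element reads the same on both strands and contains the core on each, so the matches overlap. Errfi1 has another annotated start, whose window held none of the motifs searched. The stretch of Gadd45g lies at chr13:51846475-51846674 (plus strand), that of Plk2 at chr13:110394844-110395043 (plus strand), that of Fos at chr12:85473690-85473889 (plus strand), that of the second annotated start of Errfi1 at chr4:150854870-150855069 (plus strand) and that of Dusp1 at chr17:26508473-26508672 (minus strand).
Gadd45g: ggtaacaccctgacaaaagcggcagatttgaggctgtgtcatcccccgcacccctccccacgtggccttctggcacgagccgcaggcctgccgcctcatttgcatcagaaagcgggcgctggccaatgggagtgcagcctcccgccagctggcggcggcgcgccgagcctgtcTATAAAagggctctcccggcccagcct
Plk2: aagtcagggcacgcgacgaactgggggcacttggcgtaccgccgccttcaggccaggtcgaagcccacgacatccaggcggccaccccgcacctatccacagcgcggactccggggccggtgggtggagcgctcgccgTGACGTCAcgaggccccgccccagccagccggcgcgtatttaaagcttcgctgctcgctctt
Fos: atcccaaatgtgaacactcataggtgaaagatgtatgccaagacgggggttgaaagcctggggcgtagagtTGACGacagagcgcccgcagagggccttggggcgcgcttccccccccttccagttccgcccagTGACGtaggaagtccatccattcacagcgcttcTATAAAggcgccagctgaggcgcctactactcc
Errfi1: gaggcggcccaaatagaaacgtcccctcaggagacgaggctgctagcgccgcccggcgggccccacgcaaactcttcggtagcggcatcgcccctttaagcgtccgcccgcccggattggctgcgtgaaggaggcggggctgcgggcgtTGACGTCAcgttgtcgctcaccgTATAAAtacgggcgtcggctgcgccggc
Dusp1: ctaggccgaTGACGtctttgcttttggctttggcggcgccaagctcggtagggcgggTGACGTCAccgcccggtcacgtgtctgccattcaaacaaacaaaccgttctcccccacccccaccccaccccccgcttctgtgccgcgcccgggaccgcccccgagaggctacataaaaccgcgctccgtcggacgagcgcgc

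Plk2, Errfi1 and Dusp1 hold the full cAMP response element, with its first base 62, 51 and 143 bases upstream of the start. Fos holds the core at 129 and 66 bases upstream and a TATA box at 33. Gadd45g and Errfi1 hold a TATA box at 27 and 28 bases upstream. Over windows of 300 bases around the start, 47 of the 56 higher genes had an entry, as had 4840 of the measured genes. The full element was in 6 of the 47 (12.8%) and in 3.33% of the 4840, and the core in 16 of the 47 (34.0%) and in 35.8%. The TATA box was in 14 of the 47 (29.8%) and in 10.3% of the 4840. The AP-1 site TGANTCA was in 4 of the 47 (8.51%) and in 6.74%, and the STAT site TTCNNNGAA in 3 of the 47 (6.38%) and in 8.08%. The CArG box was in none of the 47 and in 1.82% of the 4840, and the full estrogen response element GGTCANNNTGACC was in no window of either set. A match is a description of the letters and not a site of binding, and these shares were not tested.

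Secreted signals gave a few early genes with large ratios. Of 74 growth factor and hormone genes measured, 2 were at least 2-fold higher (2.70%) and 1 lower, with a median log2 ratio of 0.08. Over all measured genes, 0.928% were higher and 0.381% lower. Adm, which encodes the vasodilator peptide adrenomedullin, had 1067 at 1 h and 186 in vehicle, 5.75-fold higher. Ramp3, whose product makes the calcitonin receptor-like receptor respond to adrenomedullin, had 879 at 1 h and 393 in vehicle, 2.24-fold higher. Ramp1 and Ramp2 had log2 ratios of 0.12 and -0.12, and Calcrl, the gene of that receptor, lay under the floor on both arrays.

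Inhbb, the beta B subunit of activins and inhibins, had 689 at 1 h and 141 in vehicle, just under the floor, so that it was at least 4.82-fold higher. Inhba, the beta A subunit, had 163 at 1 h and 116 in vehicle, and Inha, the alpha subunit of inhibins, lay under the floor on both. Cxcl5, which encodes a chemokine that attracts neutrophils, had 376 at 1 h and 168 in vehicle. It was the only one at the limit of the 21 genes measured on the cytokine and chemokine list (4.76%, against 0.928% over all measured genes). Ebi3, a subunit gene of heterodimeric cytokines that is not on the list and was named after its value was seen, had 329 at 1 h and 91.8 in vehicle, at least 2.30-fold higher. Ackr3, an atypical receptor that takes up the chemokine Cxcl12, had 671 at 1 h and 256 in vehicle, 2.62-fold higher. Ackr3 and Ramp3 were the 2 past the limit of 55 measured on the list of hormone and cytokine receptors (3.64%). Other receptor genes at the limit were on none of the lists and were named after their values were seen. Csf3r, the receptor of granulocyte colony-stimulating factor, had 1350 at 1 h and 631 in vehicle, 2.14-fold higher, and Sstr2, a somatostatin receptor, had 306 at 1 h and 151 in vehicle, 2.02-fold higher. The other probe sets of Ebi3, Csf3r and Sstr2 lay under the floor on both arrays.

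Of 40 matricellular and other effector proteins measured, 4 were at least 2-fold higher (10%) and 1 lower. Over all measured genes, 0.928% were higher and 0.381% lower. Fabp5, a fatty acid binding protein, had 500 at 1 h and 78.2 in vehicle, at least 3.50-fold higher. Timp1, an inhibitor of matrix metalloproteinases, had 769 at 1 h and 347 in vehicle, 2.22-fold higher. Ccn1, a matricellular protein and an early gene in growth factor treated fibroblasts, had 290 at 1 h and 125 in vehicle, at least 2.03-fold higher. Mmp12, the elastase of macrophages, had 355 at 1 h and 177 in vehicle, and its second probe set was under the floor on both.

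Genes used as markers of the estrogen response at later times differed less at 1 h. Pgr, the progesterone receptor gene, had 285 at 1 h and 160 in vehicle, a log2 ratio of 0.84. Igf1, insulin-like growth factor 1, had 1658 at 1 h and 1234 in vehicle. Ltf, the secretory protein lactoferrin, had 3437 at 1 h and 2689 in vehicle, and Esr1, the estrogen receptor alpha gene, 582 at 1 h and 527 in vehicle. The other probe sets of Esr1 had log2 ratios of 0.32, 0.37 and -0.76.

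The remaining 29 of the 56 genes were in none of the role lists. The highest were Snrp1c-ps2, Prp2, Pcp2, Rnf2, Trnt1, Mup5 and Pfn1. Snrp1c-ps2, a pseudogene name read by a probe set that matches several similar sequences, had 1539 at 1 h and 224 in vehicle. Its signals at 6 h, 12 h and 24 h were 1276, 953 and 1134, so its ratios at all these times rest on a vehicle value that stood alone. Prp2 had 669 at 1 h and 199 in vehicle, and its other probe set 642 and 109 in the same order. Rnf2, a Polycomb ubiquitin ligase gene, had 687 at 1 h and 233 in vehicle, but another probe set read 175 at 1 h and 181 in vehicle. Trnt1, which adds the CCA end to transfer RNAs, had 1090 at 1 h and 396 in vehicle. Dio2 and Gja1 were bright and were named after their values were seen. Dio2, the deiodinase that activates thyroid hormone, had 5011 at 1 h and 2039 in vehicle, 2.46-fold higher. Gja1, a gap junction gene that is active in the myometrium, had 2894 at 1 h and 1295 in vehicle, 2.23-fold higher. Its probe set is of the type that matches several similar sequences, and another had 300 at 1 h and 171 in vehicle, 1.75-fold higher.

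Probe sets and settings limit these calls. Of the 56 genes, 15 had another measured probe set, and it was at least 1.5-fold higher in 5 of them. Of the 37 named genes at 2-fold higher, 13 stayed past the limit in every one of the 10 alternative analyses that gave them a value: Gadd45g, Plk2, Snrp1c-ps2, Adm, Fos, Errfi1, Rasd1, Spsb1, Socs1, Cebpb, Trnt1, Socs3 and Rgs3. Among these, Spsb1 and Snrp1c-ps2 had no probe set free of shared probes, and so no value in 1 of the 10. Inhbb and Ackr3 fell short only with the floor at the 60th percentile, at log2 ratios of 0.97 and 0.93. Klf4 fell short only where all its probe sets were pooled, at 0.56. Dusp1 and Ramp3 fell short only on the scale of log2(signal + 100), at 0.996 and 0.99. Src, Yes1, Ccn1 and Mmp12, all close to the limit or the floor, fell short in 4, 5, 5 and 6 of the 10.

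The same genes were followed to 6 h, and the 6 h values are set against the same vehicle array. Over all measured genes, 6.91% were at least 2-fold above vehicle at 6 h. Of the 56 early genes, 27 were at least 2-fold above vehicle at 6 h, 15 were 1.5-fold to 2-fold above it, 14 were within 1.5-fold of it and none was further below. Because both comparisons use 1 vehicle array, a low vehicle value raises both ratios, and this count supports nothing beyond itself. The 6 h array set directly against the 1 h array does not use vehicle: 32 of the 56 were within 1.5-fold of their 1 h signal at 6 h, 7 were at least 2-fold lower than at 1 h and 2 at least 2-fold higher. Over all genes measured at 6 h or 1 h, 63.7% were within 1.5-fold, 7.87% at least 2-fold lower and 7.16% at least 2-fold higher. The 56 were chosen for a high 1 h signal, which favours a lower value at 6 h, so nothing is read from these counts. Of the 27 genes in role lists, 17 were 2-fold above vehicle at 6 h, 7 were 1.5-fold to 2-fold above and 3 were within 1.5-fold. Of the 29 in no role list, these numbers were 10, 8 and 11.

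**Figure D3:**
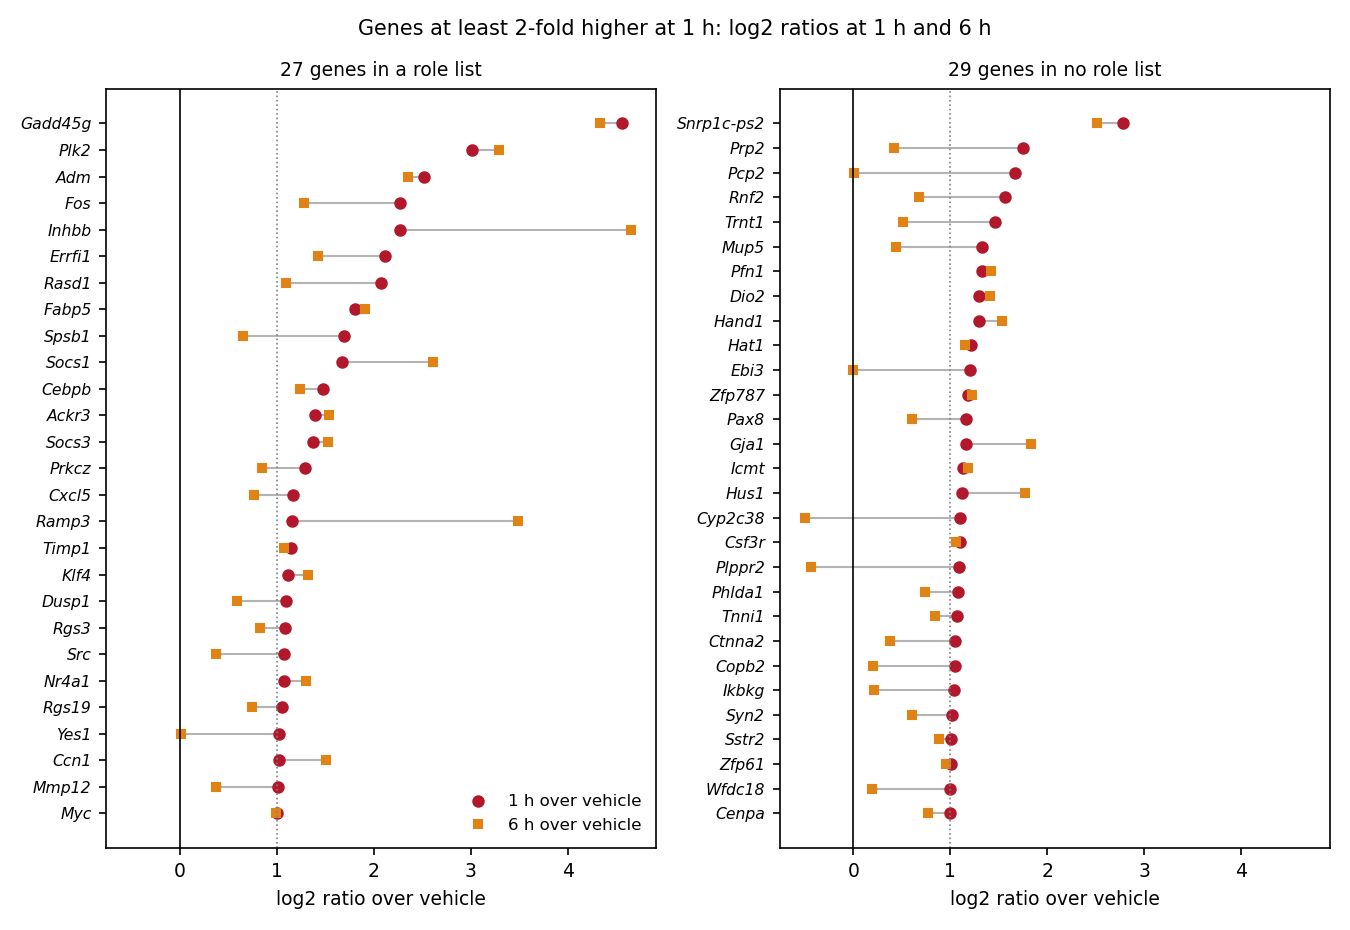
Log2 ratios over vehicle at 1 h (red circles) and 6 h (orange squares) for the 56 genes at least 2-fold higher at 1 h, with the 27 in a role list on the left and the 29 in none on the right; a line joins the values of a gene and the dotted line marks 2-fold. Inhbb and Ramp3 move farthest to the right between the times, to 4.66 and 3.49, while Spsb1, Yes1, Pcp2 and Cyp2c38 lie under 1 at 6 h.

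A first set of genes stayed close to the 1 h signal at 6 h. Gadd45g had signals of 407 in vehicle, 9583 at 1 h, 8211 at 6 h, 2390 at 12 h, then 684 at 24 h. Plk2 had 658 in vehicle, 5309 at 1 h, 6451 at 6 h, 2092 at 12 h, then 878 at 24 h. Adm had 186 in vehicle, 1067 at 1 h, 947 at 6 h, 473 at 12 h, then 212 at 24 h. In all 3, the values of 1 h and 6 h lay within 1.5-fold of each other. The 24 h value was the closest to vehicle of those at 1, 6, 12 and 24 h. Cebpb, Socs3, Ackr3 and Nr4a1 also lay within 1.5-fold of their 1 h signal at 6 h, and were 2.36-fold, 2.87-fold, 2.90-fold and 2.47-fold above vehicle. Klf4 had 975 in vehicle, 2104 at 1 h, 2437 at 6 h, 2458 at 12 h, then 2031 at 24 h, and so was still 2-fold above vehicle a day after injection.

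A second set was higher again at 6 h than at 1 h. Inhbb had 141 in vehicle, 689 at 1 h, 3604 at 6 h, 1945 at 12 h, then 327 at 24 h, a difference of 5.23-fold between 6 h and 1 h. Ramp3 had 393 in vehicle, 879 at 1 h, 4402 at 6 h, 2124 at 12 h, then 1269 at 24 h, 5.01-fold higher at 6 h than at 1 h. Socs1 was 1.91-fold higher at 6 h than at 1 h, with 1958 at 6 h, and Gja1 was 1.59-fold higher, with 4616. Fabp5 was highest a day after injection, with 78.2 in vehicle, 500 at 1 h, 537 at 6 h, 929 at 12 h, then 1983 at 24 h.

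Another set had its highest signal at 1 h, with the array labelled 3 h left aside, and was lower by 6 h. Fos had 364 in vehicle, 1757 at 1 h, 883 at 6 h, 550 at 12 h, then 228 at 24 h. Errfi1 had 856 in vehicle, 3724 at 1 h, 2291 at 6 h, 867 at 12 h, then 829 at 24 h, and Rasd1 had 254, 1068, 544, 255 and 232 at the same times. These 3 remained 2.42-fold, 2.67-fold and 2.14-fold above vehicle at 6 h. Spsb1, with 332 in vehicle, 1071 at 1 h, 523 at 6 h, 269 at 12 h, then 158 at 24 h, was 1.57-fold above vehicle at 6 h, and Dusp1 1.503-fold. Yes1 was back at the vehicle level at 6 h, with 227 at 6 h and 226 in vehicle, and Src and Mmp12 were within 1.5-fold of it. At 24 h, Fos, Spsb1, Socs3 and Dusp1 were more than 1.5-fold below vehicle.

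**Figure D4:**
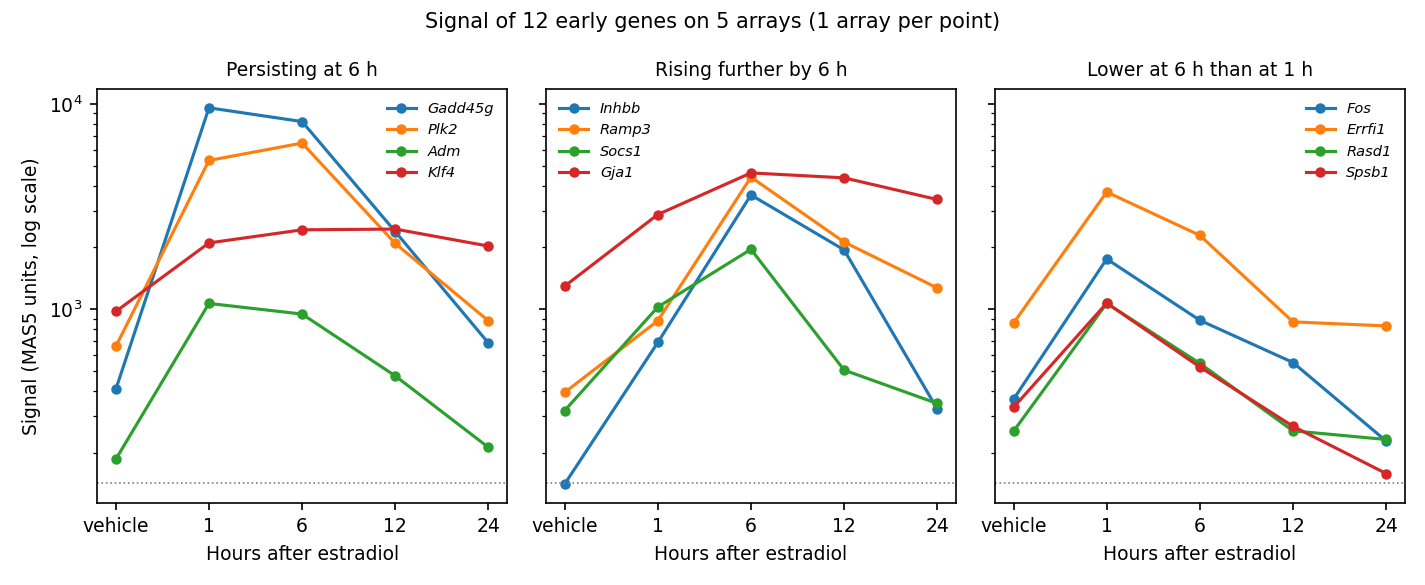
Signals (vertical axis, MAS5 units on a log scale) of 12 early genes in vehicle and 1, 6, 12 and 24 h after estradiol, 1 array per point; the dotted line is the floor of 142.8 and the array labelled 3 h is left out. Gadd45g, Plk2, Adm and Klf4 are nearly as bright or brighter at 6 h than at 1 h, Inhbb, Ramp3, Socs1 and Gja1 are brighter at 6 h, and Fos, Errfi1, Rasd1 and Spsb1 are brightest at 1 h.

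Over the later times, 18 of the 56 genes were at least 2-fold above vehicle at 12 h, then 17 at 24 h, against 6.71% and 3.69% of all genes measured at those times. These counts share the vehicle array with the choice of the genes. Of the 27 in role lists, 10 were so at 12 h, then 7 at 24 h. Of the 29 in no role list, 8 were so at 12 h, then 10 at 24 h. The role lists were chosen with earlier results of these data known, so nothing is read from this split at any time. The 1 h array was the brightest of all 6 for 28 of the 56 genes and the vehicle array the dimmest for 22. Without the array labelled 3 h these numbers were 31 and 37. A choice by a high 1 h signal over a low vehicle signal favours both ranks, so nothing is read from these numbers. Jun and Mycn, of the AP-1 and Myc families, had missed the limit at 1 h and were dimmer at 6 h than in vehicle. Jun had 845 in vehicle, 1488 at 1 h and 403 at 6 h. Mycn, a relative of Myc, had 231 in vehicle, 381 at 1 h and 152 at 6 h. Some genes near vehicle at 1 h differed at 6 h. Mxi1 and Mxd4, which encode antagonists of Myc, had log2 ratios of -0.09 and -0.27 at 1 h, and at 6 h Mxd4 was 6.12-fold lower and Mxi1 at least 6.34-fold lower than vehicle. Egr2 had a log2 ratio of -0.08 at 1 h and was 2.53-fold higher than vehicle at 6 h.

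Of the 23 lower genes, 15 reached 352.7, the 60th percentile of all values, on their brighter array, and 9 lay under the floor at 1 h. Fancc, a DNA repair gene of the Fanconi anaemia pathway, had 226 at 1 h and 1018 in vehicle, 4.50-fold lower. Actb, the beta actin gene, had 646 at 1 h and 2080 in vehicle by a probe set shared with similar sequences, and 437 at 1 h and 1344 in vehicle by another. The control probe sets for the same transcript, which read 23256 to 26910 at 1 h and 27688 to 34529 in vehicle, were 0.779 to 0.840 times as bright at 1 h as in vehicle. Fancc and Actb were the only 2 of the 13 named lower genes that stayed past the limit in every alternative analysis that gave them a value, and Actb had none where only probe sets free of shared probes were used.

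Some of the lower genes are known from secretory tissue other than the uterus. Prss2, a trypsinogen gene, had 17.5 at 1 h and 494 in vehicle, and at most 43.5 on any array after estradiol. Cela2a, a pancreatic elastase gene, had 108 at 1 h and 429 in vehicle. Both belong to the pancreatic acinar list, whose 8 measured members were all dimmer at 1 h. The summed signal of the 9 members on the array was 2934 at 1 h and 5706 in vehicle, and the measured ones had a median log2 ratio of -0.68. Ctrb1, a chymotrypsinogen gene, had 1007 at 1 h and 1943 in vehicle. The part of this difference in the lower genes outside the list was not tested. Pomc, the precursor of pituitary hormones, had 79.0 at 1 h and 494 in vehicle, at least 3.46-fold lower.

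The other named lower genes were Kcnn1, a calcium-activated potassium channel gene (at least 3.19-fold lower), the histone acetyltransferase gene Kat2a (at least 2.77-fold), the gluconokinase gene Idnk (2.57-fold), the mitochondrial carboxylase gene Pccb (2.57-fold), Prcc (2.53-fold) and the sulfotransferase gene Chst3 (at least 2.50-fold). Fmod, fibromodulin of the collagen matrix, had 55.0 at 1 h and 346 in vehicle, at least 2.42-fold lower. At 6 h, 13 of the 23 were at least 2-fold below vehicle, 2 were 1.5-fold to 2-fold below and 8 within 1.5-fold. Over all genes measured at 6 h or in vehicle, 9.10% were at least 2-fold below vehicle at 6 h, and a high vehicle value lowers the ratios of both times. The vehicle array was the brightest of all 6 for 15 of the 23, and of the 5 arrays other than the one labelled 3 h for 17. The 23 were chosen for a high vehicle signal over a low 1 h signal, which favours that rank, so nothing is read from it.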

How the data were processed

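Total RNA of pooled whole uteri was hybridised to Affymetrix U74Av2 arrays, per the labels' protocols. The authors' MAS5 software (named in the submitters' processing notes, version not given in the sources used here) made the deposited values, which are signal intensity on a linear scale, 1 value per probe set and array, with no detection calls used here. From the values, the authors had scaled every array to a 2% trimmed mean of 500.2 to 500.3.

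Of 12488 probe sets, 66 controls were left out. The array annotation gave 10833 of the 12422 others 1 gene symbol, 396 several and 1193 none, and only the first were named, 10817 of them updated through RefSeq on GRCm38.p6. Non-control probe sets were brought to a common 2% trimmed mean on all arrays, values under the 40th percentile (142.8) were raised to it, and log2 was taken. The brightest probe set by mean log2 signal over the 6 arrays stood for a gene, out of several for 2073 genes. With 1 array per group no test was made, and precision is limited by the number of arrays. The steps were tested on simulated data, with planted differences well past the 2-fold limit and only in bright genes. That test does not bear on calls near the limit or the floor.

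The 9 role lists hold 962 symbols, of which 768 are on the array, and 9 marker lists and 14 families were also used. Genes named are the 20 highest and 12 lowest ratios whose brighter array reached the 60th percentile (352.7), list members at 2-fold, the 4 on each side of the limit, family members, and Esr1, Pgr, Igf1 and Ltf; C3 was not analysed here. Members and lists were chosen with earlier results of these data known. Promoters came from RefSeq, 250 bases before to 50 after each start. Alternatives covered the floor, a pseudocount of 100 without a floor, scaling and the probe set rule. Python 3.11.15, numpy 2.4.6, pandas 2.3.3, statsmodels 0.14.6 and matplotlib 3.10.9 were used.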

Additional observations from a re-analysis of the deposited data

Results flagged for a closer look

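Of the 79 genes at least 2-fold from vehicle at 1 h, 5 lay on the other side of vehicle at 6 h, but all 5 were within 1.5-fold of it. None of the 79 was further than that on the other side. The difference between the times was not tested, and no share over all genes was counted. Cyp2c38, a cytochrome gene, had 434 at 1 h and 202 in vehicle, and a log2 ratio of -0.50 at 6 h, where its signal of 109 was under the floor. Plppr2 had 425 at 1 h and 200 in vehicle, and -0.44 at 6 h. Kat2a was at least 2.77-fold lower at 1 h and had a log2 ratio of 0.12 at 6 h. Smyd5 had 181 at 1 h and 446 in vehicle, and 0.51 at 6 h. None of its other probe sets was lower at 1 h by the floored ratio, and the brightest of them had 248 at 1 h and 201 in vehicle. Glipr2 had 201 at 1 h and 416 in vehicle, and 0.46 at 6 h. Cyp2c38, Plppr2, Smyd5 and Glipr2 were named after their values were seen.

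Probe sets with no gene symbol or with several were outside the gene counts. Of 799 such probe sets measured at 1 h or in vehicle, 13 were at least 2-fold higher (1.63%) and 8 at least 2-fold lower (1.00%). Over measured genes these shares were 0.928% and 0.381%, but each gene was read by its brightest probe set only, so the units differ. The highest had a signal of 719 at 1 h and 75.1 in vehicle, which is under the floor, so its ratio is a lower bound.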

How the results depend on the processing

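With the floor at the 20th percentile, 258 genes were higher, 161 lower and 88 of the higher ones stayed 2-fold above vehicle at 6 h. With the floor at the 60th percentile these numbers were 24, 5 and 16, against 56, 23 and 27 in the main analysis; fewer dim genes can reach 2-fold over a higher floor. The other 8 alternatives gave 40 to 56 higher, 19 to 32 lower and 18 to 27 persisting. They include 2 chosen after seeing the data, which left out the array labelled 3 h or used only probe sets without a suffix for shared probes (40 higher, 22 lower, 23 persisting). With the median over all probe sets of a gene, Rnf2 turned to a log2 ratio of -0.0502 and Rgs19 to -0.11, because their other probe sets were not higher. No other of the 50 genes at 2-fold that were named by rule changed direction, and genes named after their values were seen are not among these. Of the 50 named genes at 2-fold, 22 kept it with the higher floor and 33 with log2(signal + 100), and 38 of 41 with probe sets free of shared probes. Of the role list medians, that of immediate early transcription factors was 0.33 with the lower floor, against 0.21, and that of receptor kinases -0.09 with the higher floor, against 0.03. No paired analysis was possible because each group has 1 array, and no replicate could be left out. Signals near the floor limit the dim genes: 8 of the 56 higher genes were under it in vehicle.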
